A study of Mus musculus with 4 samples.

Results

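Collagens are the structural proteins of the extracellular matrix, and the family was followed through 37 chain genes with a row in the count files, out of 34615 gene rows in all. The chains were taken by name and matched by Ensembl identifier, and were set in 3 groups: 8 basement membrane chains, 10 fibrillar chains and 19 other chains. RNA was sequenced from mouse mammary basal cells, the outer epithelial layer of the gland, which rests on the basement membrane. There were 2 wild-type libraries (WT; genotype WTfl/flmTmGfl/fl cre+) and 2 knockout libraries (KO; miR205fl/flmTmGfl/fl cre+), both spelled as in the labels, where fl usually marks an allele flanked by loxP sites. Cells of both genotypes received a Cre adenovirus and carried the mTmG reporter at Rosa, which turns green after Cre acts, so green cells report the reporter's recombination and not that of miR-205 itself. Hosts were SCID-Beige mice, 3 weeks old at transplantation, the outgrowths were pooled (40 in the series' account) and collected after 8 weeks, and GFP+ CD24+CD49fhigh cells were sorted. The comparison asks how loss of miR-205 alters gene expression in these cells, and the series title names YAP and Wnt signaling.

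Every collagen chain carries a repeat of glycine followed by other residues, often proline and hydroxyproline, that lets chains wind into a triple helix. Type IV chains join into the network of the basement membrane, fibrillar chains pack into staggered fibrils, and the remaining types decorate fibrils, anchor the basement membrane to them or form beaded filaments. Myoepithelial cells of the mammary gland make much of the basement membrane under the epithelium, and interstitial fibrils are mostly made by fibroblasts. A sorted sample holds RNA of a mixture, and fewer cells of a type cannot be told apart from less RNA per cell.

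Gene counts per library ran from 47953972 to 60030932. KO replicate 2 stood apart from the other libraries, with 12679 genes that had a count, against 18027 to 18897 in the other 3. Each result is therefore given for both KO libraries, and values are listed in replicate order. Mir205 (ENSMUSG00000065533) had 0 counts in each of the 4 libraries, so the deleted gene gave no check of the labels. Of 9 basal marker genes, the most abundant were Acta2, smooth muscle actin, at 2264 to 3707 counts-per-million (CPM) and Itga6 at 2021 to 2637 CPM. Itga6 encodes the CD49f antigen used in the sort, so its level is no independent check of basal identity. All CPM values are scaled by TMM, a factor that evens out composition between libraries. On this scale all tested genes summed to 1148920 CPM in KO replicate 2, against 941244 to 968568 CPM in the other libraries. Summed levels in KO replicate 2 therefore stand on a larger base.

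miR-205-5p, the main strand of the deleted microRNA, binds target RNAs through its seed, bases 2 to 8, which are in capitals in the RefSeq sequence (22 bases, GRCm38.p6, chr1:193507503-193507524, minus strand). The 5 collagen 3' UTR stretches that hold the matching bases follow it, from GENCODE M21 transcripts, with the match ATGAAGG in capitals and, where the next base is A, that base too. They are shown because such matches are where a microRNA can bind a transcript.
mmu-miR-205-5p: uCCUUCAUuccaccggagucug
Col16a1: gcccacactgagATGAAGGActctacta
Col22a1: cattaattaaatATGAAGGAgtgttctt
Col18a1: agcacttgtcctATGAAGGgacttgtgt
Col9a3: ggttatagtgtgATGAAGGcaaggaact
Col25a1: ccattgtaaagaATGAAGGttaagcatt

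Of the 37 chains, 5 (13.5%) held a match in their longest annotated 3' UTR, against 12.1% of 12635 tested genes. The median 3' UTR was 1009 bases for the chains and 1200 bases for the tested genes. Col16a1 and Col22a1 had the longer match of 8 bases, which in Col16a1 began at base 20 of a 3' UTR of 185 bases. The type IV chains held none. A match is a description of sequence and does not show that the microRNA binds there.

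Of 15364 genes tested with edgeR's quasi-likelihood test, 0 (0.0%) were called, with the p-value adjusted by Benjamini-Hochberg and a threshold of 0.05. Of the 34 collagen chains tested, 0 were called. The smallest adjusted p among the chains was 0.9989. At an unadjusted p under 0.05 there was 1 chain, Col6a1, of 34, where 0.957% of all tested genes passed. The KO and WT libraries did not overlap in 9 of the 34 chains, with both KO libraries above in 4 and below in 5, which is 26.5% against 32.4% of all tested genes. A positive fold change was found in 13 of the 34 chains (42.8% of all tested genes), and without KO replicate 2 in 15 of 37 (46.2%). Among the 20 chains at a mean of 10 CPM or more, 2 lay above and 3 below, together 5 of 20, beside 32.9% of all genes at that level (19.9% above and 13.0% below). DESeq2 called 0.0195% of genes higher and 0.00651% lower and limma voom called 0, and neither called a collagen chain. Nothing states that the replicates came from separate animals or pools, so the p-values reflect only how far these libraries differ, and that may be technical.

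RNA of the 37 chains in these cells was dominated by a few of them. Of the 37 chains, 20 had a mean of 10 CPM or more over the 4 libraries, 8 had 1 to 10 CPM and 9 had less than 1 CPM. Together, the 5 most abundant, Col4a2, Col12a1, Col4a1, Col14a1 and Col4a5, made up 72.6% and 72.3% of the summed CPM of the 37 chains in WT. In KO they made up 70.5% and 72.4%. Basement membrane chains took 48.1% and 49.5% of that sum in the WT libraries, 51.0% in the first KO library and 55.9% in the second. Fibrillar chains took 7.03% and 7.74% in WT and 7.0% and 6.19% in KO. The chain Col1a1, partner of Col1a2 in type I collagen, was not analysed here.

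**Figure D1:**
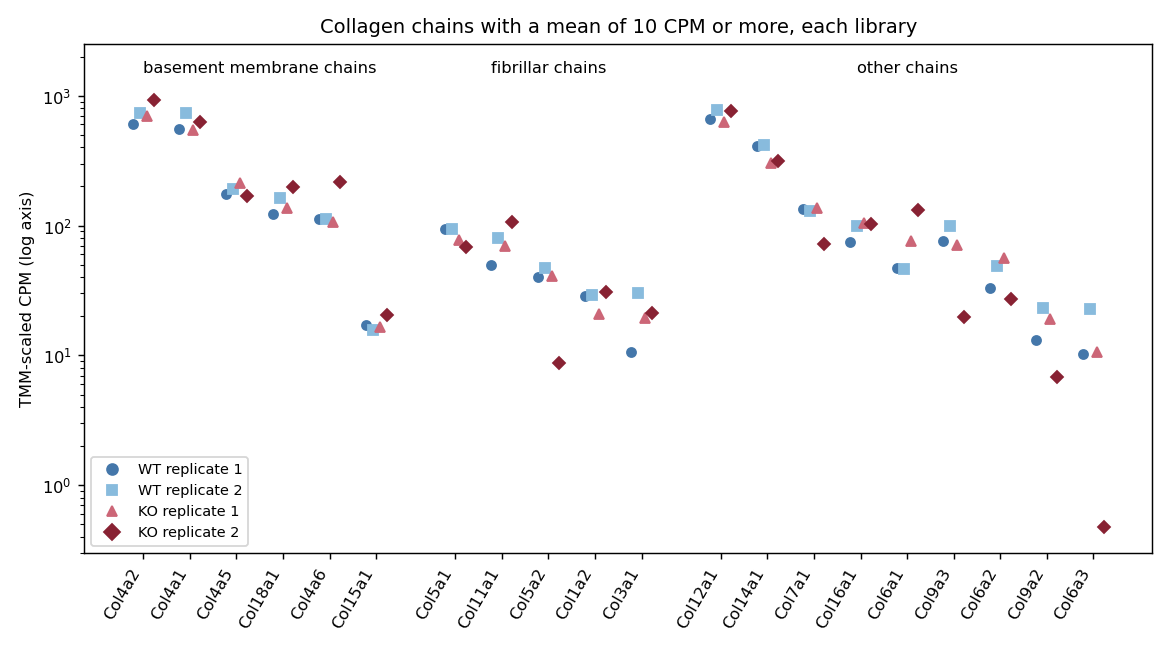
TMM-scaled CPM on a log axis for the 20 collagen chains with a mean of 10 CPM or more, grouped by class, with 1 point for each of the 2 WT and 2 KO libraries. Col4a2, Col4a1 and Col12a1 stood above 500 CPM in every library, and Col6a3 in KO replicate 2, at 0.479 CPM, is the lowest point.

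Per kilobase of exon, the order of levels began with Col4a2 at a mean of 112.5 CPM per kb and Col4a1 at 82.1. Col4a2 was above Col4a1 in each library, although their ranges, 91.4 to 140.9 and 72.9 to 97.8 CPM per kb, overlapped. Next came Col14a1 at a mean of 51.5 and Col12a1 at 46.1 CPM per kb, whose ranges of 43.0 to 59.7 and 40.8 to 50.9 did not set them apart. Col4a5 at 27.9 and Col18a1 at 22.0 CPM per kb followed, also with overlapping ranges. Col9a3, Col6a1 and Col4a6 had means of 17.2, 17.2 and 17.1 CPM per kb and no separate order. Col1a2 and Col3a1, the fibrillar chains typical of fibroblasts, stood at 2.22 and 2.07 CPM per kb. Lengths are unions of annotated exons, so a gene with rare long transcripts is given a lower level than its main transcript has.

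The basement membrane chains of the sorted cells lay within 1.5-fold of the WT mean in KO replicate 1, and Col4a2, Col4a6, Col15a1 and Col18a1 had their highest value in KO replicate 2. All 8 passed the low-count filter, 5 had a positive fold change and 3 a negative one, and in 0 of the 8 were both KO libraries above, or both below, the WT libraries, beside 32.4% of all tested genes. Their median log2 fold change of KO over WT was 0.12, beside -0.14 for all tested genes. With total count scaling these medians were -0.01 and -0.24. Without KO replicate 2 it was -0.02, beside -0.04 for all genes tested there. Among the 6 chains at 10 CPM or more, the median with all libraries was 0.20, beside 0.08 for 7346 genes at that level.

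Col4a1 and Col4a2 encode the chains of the common type IV network of basement membranes. Col4a1 stood at 550.5 and 729.6 CPM in the WT libraries and 544.3 and 627.6 CPM in the KO libraries, a log2 fold change of -0.13 ± 0.22 (SE). Col4a2 stood at 604.8 and 738.2 CPM in the WT libraries and 703.3 and 932.6 CPM in the KO libraries, a log2 fold change of 0.28 ± 0.23. For both genes a KO library fell inside the WT range, and the spread between the WT libraries was as wide as the difference between genotypes in Col4a1. The ratio of Col4a1 to Col4a2 per kb was 0.807 and 0.876 in the WT libraries, 0.686 in the first KO library and 0.597 in the second.

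Col4a5 and Col4a6 encode the chains of a type IV network found in the basement membrane of smooth muscle and of several epithelia. Col4a5 stood at 176.3 and 190.9 CPM in the WT libraries and 211.6 and 169.7 CPM in the KO libraries. Col4a6 (ENSMUSG00000031273) stood at 111.4 and 112.9 CPM in the WT libraries, 106.4 CPM in the first KO library and 215.9 CPM in the second. KO replicate 2 alone was high for Col4a6, at 1.93 times the WT mean, and the lowest for Col4a5. Thus the ratio of Col4a5 to Col4a6 per kb was 1.88 and 2.01 in the WT libraries, 2.36 in the first KO library and 0.933 in the second. The log2 fold change of Col4a6 was 0.52 ± 0.39, and -0.07 ± 0.20 without KO replicate 2.

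Type IV genes lie head to head in pairs, and the data bear on 2 of these pairs. In RefSeq on GRCm38.p6, the start of Col4a2 on chromosome 8 lies 21 bases inside the first exon of Col4a1, so both read outward from 1 stretch of DNA. The starts of Col4a6 and Col4a5 on chromosome X are 1343 bases apart. The 250 bases before each of these starts are shown because this pair parted in KO replicate 2; capitals mark the CCAAT box (CCAAT) and the GC box (GGGCGG) on either strand. Col4a5 is at chrX:141475169-141475418 on the plus strand, and Col4a6 at chrX:141474077-141474326 on the minus strand.
Col4a5: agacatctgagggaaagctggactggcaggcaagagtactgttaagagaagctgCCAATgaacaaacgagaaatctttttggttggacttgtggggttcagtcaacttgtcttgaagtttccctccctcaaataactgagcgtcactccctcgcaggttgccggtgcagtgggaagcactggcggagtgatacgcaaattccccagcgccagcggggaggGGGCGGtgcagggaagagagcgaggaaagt
Col4a6: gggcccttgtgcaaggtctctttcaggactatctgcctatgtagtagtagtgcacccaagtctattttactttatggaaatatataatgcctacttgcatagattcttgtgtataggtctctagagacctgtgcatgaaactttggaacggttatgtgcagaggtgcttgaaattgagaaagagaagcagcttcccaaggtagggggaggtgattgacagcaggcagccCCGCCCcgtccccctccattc

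Both stretches held 1 GC box, and Col4a5 alone held a CCAAT box. In RefSeq windows of 300 bases around gene starts, which 30 of the 37 chains had, a GC box was in 18 of the 30 chains and in 35.9% of 32544 windows. CCAAT was in 11 of the 30 chains and in 37.4% of all windows. TATAAA was in 4 of the 30 and in 13.6% of windows. GGAATG, the core that TEAD partners of YAP bind, was in 5 of the 30 and in 14.6% of windows, on either strand.

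Col18a1 and Col15a1 encode the multiplexins, collagens of the basement membrane zone whose released ends include endostatin in the case of Col18a1. Col18a1, which holds a miR-205 match, stood at 122.3 and 162.7 CPM in the WT libraries and 136.8 and 197.0 CPM in the KO libraries, a log2 fold change of 0.23 ± 0.30. Col15a1 stood at 17.0 and 15.7 CPM in the WT libraries and 16.6 and 20.4 CPM in the KO libraries. In both genes the KO libraries overlapped the WT range. Col4a3 and Col4a4, chains of the type IV network of kidney and lung, were scarce. Col4a3 had 76 and 179 counts in the WT libraries, 179 in the first KO library and 0 in the second, and Col4a4 had 212 and 137 counts in the WT libraries and 177 and 26 in the KO libraries.

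Fibrillar chains were a minor part of the summed RNA of the 37 chains, which leaves out Col1a1. Col5a1, Col11a1 and Col5a2 had higher mean levels per kb (9.86, 6.0 and 3.58 CPM) than Col1a2 and Col3a1. Of the 10 chains, all tested, 2 had a positive and 8 a negative fold change. The median log2 fold change was -0.47, beside -0.14 for all tested genes. Among the 5 chains at 10 CPM or more the median was -0.17, beside 0.08 for the 7346 genes at that level, and it was -0.08 without KO replicate 2. The other 5 fibrillar chains lay under 10 CPM, and 4 of them had 0 counts in KO replicate 2.

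Col5a1 (ENSMUSG00000026837) encodes the main chain of type V collagen, which sits inside type I fibrils and limits their width. It stood at 93.7 and 94.8 CPM in the WT libraries and 77.3 and 69.0 CPM in the KO libraries, a log2 fold change of -0.37 ± 0.26, with both KO libraries below both WT libraries. Col5a2, the partner chain of Col5a1, stood at 40.1 and 47.4 CPM in the WT libraries, 41.2 CPM in the first KO library and 8.68 CPM in the second. For Col5a2 the KO libraries lay farther apart than the WT libraries, KO replicate 2 alone was low, and the log2 fold change was -0.81 ± 0.79. The ratio of Col5a1 to Col5a2 per kb was 2.64 and 2.26 in the WT libraries, 2.12 in the first KO library and 8.98 in the second.

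Col11a1, the type XI chain that can also join type V trimers, stood at 49.6 and 80.0 CPM in the WT libraries and 69.6 and 107.0 CPM in the KO libraries, with overlapping libraries. Col1a2, a chain of type I collagen, stood at 28.9 and 29.4 CPM in the WT libraries, 21 CPM in the first KO library and 30.9 CPM in the second. Col3a1, the type III chain of soft tissue fibrils, stood at 10.7 and 30.3 CPM in the WT libraries and 19.3 and 21.2 CPM in the KO libraries. The WT libraries of Col3a1 lay 2.84-fold apart and enclosed both KO libraries. Among the scarce fibrillar chains, Col2a1 of cartilage ran from 0.994 to 2.85 CPM, with KO above WT. Col11a2 had 187 and 501 counts in the WT libraries, 97 in the first KO library and 0 in the second. Col27a1 had 240 and 658 counts in the WT libraries, 288 in the first KO library and 0 in the second.

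**Figure D2:**
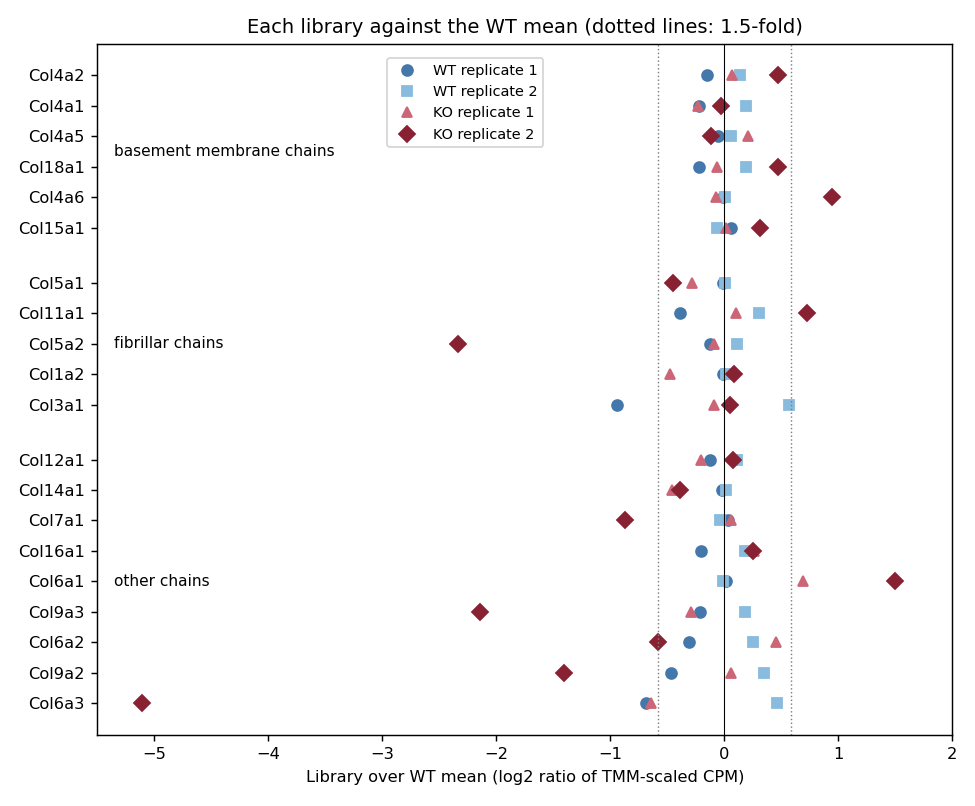
Log2 ratio of each library's TMM-scaled CPM to the WT mean for the 20 chains with a mean of 10 CPM or more, 1 point per library, with dotted lines at 1.5-fold. KO replicate 1 lay past 1.5-fold in 2 chains, and KO replicate 2 in 8, with Col6a1 highest at 2.82 times and Col6a3 lowest at 0.0291 times the WT mean.

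KO replicate 2 lay far from the WT mean in more chains than KO replicate 1 did, and in a larger share of all genes. Among the 20 chains at 10 CPM or more, KO replicate 1 lay over 1.5-fold above the WT mean in 1 and below it in 1. Of all 7346 genes at that level, 3.36% and 4.51% did so. KO replicate 2 lay over 1.5-fold above in 3 of the 20 chains and below in 5, beside 30.3% and 25.0% of all genes at that level. Col4a6, Col11a1 and Col6a1 were the 3 above, and Col5a2, Col6a3, Col7a1, Col9a2 and Col9a3 the 5 below.

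Type VI collagen, a beaded filament next to basement membranes, had chains with unlike values in KO replicate 2. Col6a1 (ENSMUSG00000001119) stood at 47.2 and 46.4 CPM in the WT libraries and 75.6 and 131.9 CPM in the KO libraries. Both KO libraries were above both WT libraries, the log2 fold change was 1.15 ± 0.37 and the unadjusted p of the edgeR test was 0.0279 (adjusted p = 0.9989, and 0.00452 to 1 over the other settings). Without KO replicate 2 it was 0.70 ± 0.25. Col6a2 stood at 32.8 and 48.6 CPM in the WT libraries, 55.9 CPM in the first KO library and 27.2 CPM in the second, a log2 fold change of 0.03 ± 0.51 (-0.05 with total count scaling, where the median of all genes was -0.24). Col6a3 stood at 10.3 and 22.7 CPM in the WT libraries, 10.6 CPM in the first KO library and 0.479 CPM in the second, where it had 20 counts.

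These 3 genes encode the chains that are built together into type VI collagen. In KO replicate 1 the ratio of Col6a1 to Col6a2 per kb was 2.57, within the WT values of 2.73 and 1.82 for the same ratio. In KO replicate 2 it was 9.22. Thus in that library Col6a1 was at its highest while Col6a2 and Col6a3 were at their lowest.

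Chains that coat or link fibrils included abundant ones, of which Col12a1 had close levels in both genotypes. Col12a1, a fibril-associated chain of tissues under tension, stood at 656.2 and 775.2 CPM in the WT libraries and 621.9 and 757.0 CPM in the KO libraries, a log2 fold change of -0.05 ± 0.21. Col14a1 (ENSMUSG00000022371), its relative on fibril surfaces, stood at 408.4 and 418.5 CPM in the WT libraries and 301.8 and 315.5 CPM in the KO libraries. Both KO libraries were below both WT libraries for Col14a1, with a log2 fold change of -0.42 ± 0.18 and an unadjusted p of 0.0693 in the edgeR test (adjusted p = 0.9989). The spread within each genotype was small for this gene, with an SD of 7.15 CPM for WT and 9.71 CPM for KO (n = 2 each), and the log2 fold change was -0.45 ± 0.15 without KO replicate 2.

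Col16a1, a fibril-associated chain that epithelia also make and that carries the 8-base miR-205 match, stood at 75.1 and 98.4 CPM in the WT libraries and 103.9 and 103.1 CPM in the KO libraries. Both KO libraries were above both WT libraries, with a log2 fold change of 0.25 ± 0.27 that was smaller than its error. The gap from the higher WT library to the lower KO library was narrow beside the distance between the WT libraries.

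Col7a1 encodes the anchoring fibrils that fasten the epithelial basement membrane to the matrix beneath. It stood at 135.3 and 128.6 CPM in the WT libraries, 137.2 CPM in the first KO library and 72.3 CPM in the second. KO replicate 2 alone was low, and the log2 fold change was -0.33 ± 0.37, and 0.06 ± 0.19 without that library.

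RNA of the chains of type IX collagen, known as a coat of cartilage fibrils, was counted in these sorted cells. Col9a3, which holds a miR-205 match, stood at 75.6 and 99.2 CPM in the WT libraries, 71.3 CPM in the first KO library and 19.8 CPM in the second, a log2 fold change of -0.94 ± 0.65. Both KO libraries were below both WT libraries, although KO replicate 1 was only just below the lower of them. Col9a2 stood at 13.2 and 23.2 CPM in the WT libraries and 19.0 and 6.88 CPM in the KO libraries. Col9a1 had 278 and 454 counts in the WT libraries, 706 in the first KO library and 0 in the second, so it was highest in one KO library and not detected in the other. Of these chains, Col9a3 overlaps an exon of Tcfl5 on the opposite strand, so its reads cannot all be assigned with certainty.

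**Figure D3:**
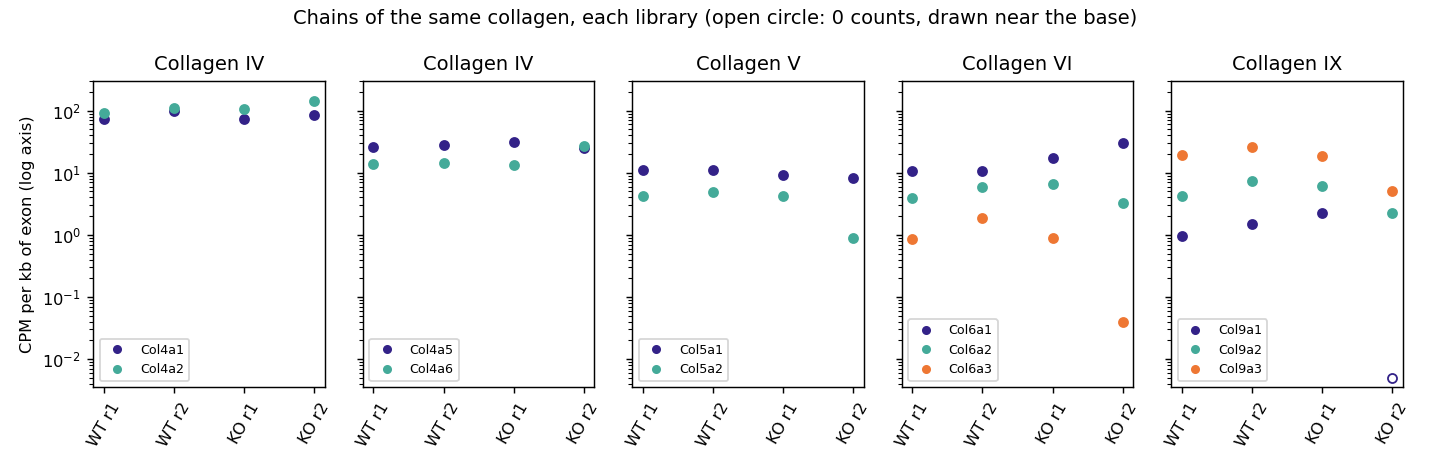
CPM per kb of exon on a log axis for chains that are built into the same collagen, 1 point per library, with an open circle for 0 counts drawn near the base of the panel. Col4a1 and Col4a2 stayed close in all 4 libraries. Col5a2, Col6a3 and Col9a1 were below their partners in every library and lay farthest below them in KO replicate 2.

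Scarce chains were often without a count in KO replicate 2. Of 11 chains at 1 to 10 CPM in WT, 6 had 0 counts there and 0 of 11 in KO replicate 1. Among all 5112 genes at that WT level the shares were 32.2% and 0.43%. Over all levels 11 of 37 chains had 0 counts in KO replicate 2, against 1 each in WT replicate 1 and KO replicate 1, which was Col19a1 both times, and 0 in WT replicate 2. At 0 counts the upper limit is 3 counts, which is 0.0719 TMM-scaled CPM in KO replicate 2 and covers counting error only.

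Other scarce chains kept counts in every library. Col8a1, a network chain of vessel walls, ran from 4.96 to 11.8 CPM, both ends of the range being KO libraries. Col25a1, a transmembrane collagen with a miR-205 match, stood at 7.65 and 4.64 CPM in the WT libraries, 3.79 CPM in the first KO library and 19.3 CPM in the second. Col22a1, found at muscle and tendon junctions, had 10 and 9 counts in the WT libraries and 12 and 19 in the KO libraries, and its miR-205 match is of the 8-base kind. Among the 5 chains with a match, the KO libraries lay above WT in Col16a1 and, at these few counts, in Col22a1 (13.2% of all tested genes did), below it in Col9a3 (19.2%), and overlapped it in Col18a1 and Col25a1.

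The remaining chains had a mean under 1 CPM. Col5a3, Col24a1, Col8a2, Col10a1 and Col20a1 passed the filter with at most 149 counts in any library, and Col20a1 had 2 counts in KO replicate 2 where the other 4 had 0. Col13a1, Col19a1 and Col28a1 did not pass the filter. Col13a1 had at most 13 counts, Col19a1 was counted 40 times in WT replicate 2 and 0 times elsewhere, and Col28a1 had 76 counts in WT replicate 2 and at most 7 elsewhere.

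**Figure D4:**
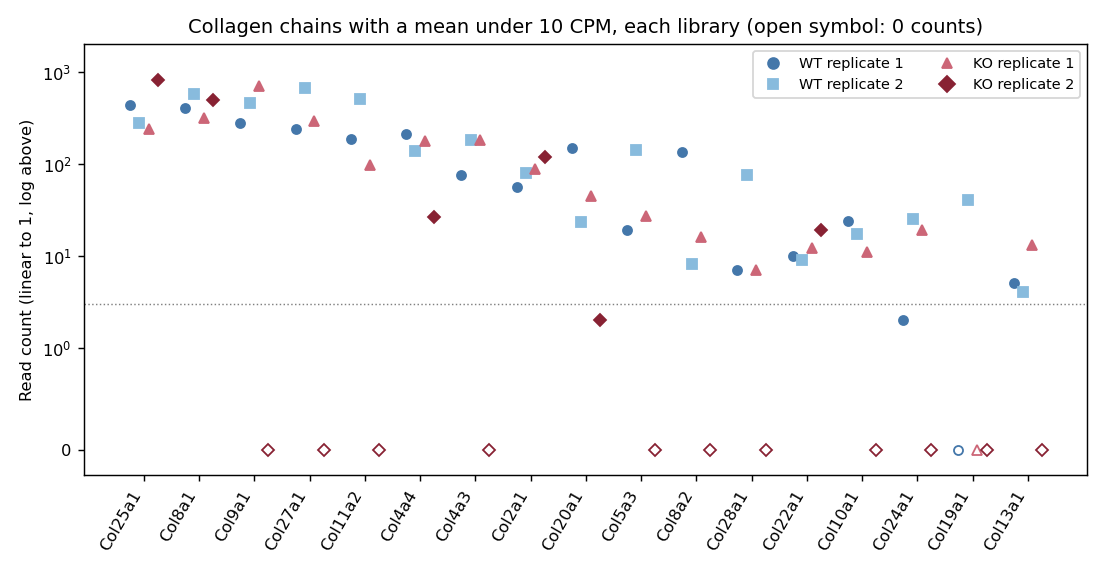
Read counts of the 17 collagen chains with a mean under 10 CPM, 1 point per library, on an axis that is linear to 1 and logarithmic above, with open symbols for 0 counts and a dotted line at 3 counts. In KO replicate 2, 11 of the 17 chains had 0 counts, while Col25a1, at 807 counts, was at its highest there.

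Collagen chains pass through enzymes of the endoplasmic reticulum that hydroxylate, glycosylate and fold them. Of 19 such genes listed, 14 had a row and all were tested: 8 had a positive fold change, 6 a negative one and 0 passed. Their median log2 fold change was 0.18, beside -0.14 for all tested genes, and -0.09 beside -0.71 without KO replicate 1. The sum over the list was 438.3 and 459.8 CPM in the WT libraries and 465.0 and 563.8 CPM in the KO libraries. Serpinh1, the collagen chaperone, stood at 86.4 and 97.1 CPM in the WT libraries and 90.4 and 138.9 CPM in the KO libraries.

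P4ha1, a prolyl 4-hydroxylase subunit, stood at 25.0 and 28.0 CPM in the WT libraries and 31.6 and 79.8 CPM in the KO libraries, a log2 fold change of 1.07 ± 0.55. Colgalt1, which adds galactose to hydroxylysine, stood at 46.0 and 41.3 CPM in the WT libraries, 35.4 CPM in the first KO library and 143.6 CPM in the second. Fkbp14, a prolyl isomerase, stood at 3.67 and 0.370 CPM in the WT libraries and 5.70 and 9.25 CPM in the KO libraries. These genes had their highest value in KO replicate 2.

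On the other side, P3h2, the prolyl 3-hydroxylase that acts on type IV collagen, stood at 98.4 and 118.3 CPM in the WT libraries and 86.5 and 66.2 CPM in the KO libraries (log2 fold change -0.50 ± 0.29). P3h3 of the same family stood at 8.34 and 12.8 CPM in the WT libraries, at 8.16 CPM in KO replicate 1, and had 0 counts in KO replicate 2. Plod2, a lysyl hydroxylase, stood at 50.5 and 47.8 CPM in the WT libraries, 68.4 CPM in the first KO library and 7.84 CPM in the second. Both KO libraries were below WT in P3h2 and P3h3, and in Plod2 they lay on either side of it.

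Outside the cell, collagens are trimmed and cross-linked. Of 14 such genes listed, 13 had a row and 12 were tested: 5 had a positive fold change, 7 a negative one and 0 passed, with a median log2 fold change of -0.11, beside -0.14 for all tested genes. The list median was -0.98 without KO replicate 1 (all genes -0.71) and -0.21 without KO replicate 2 (all genes -0.04). Pxdn, the peroxidase that cross-links type IV collagen, stood at 109.4 and 125.9 CPM in the WT libraries and 99.8 and 55.9 CPM in the KO libraries (log2 fold change -0.60 ± 0.36). Bmp1, which cleaves the ends of fibrillar procollagens, stood at 72.8 and 89.2 CPM in the WT libraries and 71.0 and 42.9 CPM in the KO libraries. Both KO libraries of Pxdn and Bmp1 were below WT, and for Bmp1 KO replicate 1 was close to the lower WT library.

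Tll1, a relative of Bmp1, stood between 2.35 and 2.50 CPM in WT and KO replicate 1 and at 27.8 CPM in KO replicate 2. Adamts14, a procollagen N-proteinase, stood at 2.34 and 0.185 CPM in the WT libraries and 0.414 and 22.4 CPM in the KO libraries. Loxl3 and Loxl4 belong to the lysyl oxidase family, whose members start cross-links. Loxl3 stood at 10.3 and 15.2 CPM in the WT libraries and 15.2 and 19.1 CPM in the KO libraries, and Loxl4 at 3.43 and 1.5 CPM in the WT libraries and 1.08 and 1.20 CPM in the KO libraries. Tll1 was high in KO replicate 2 alone, and Adamts14 was highest there but also lay far apart between the WT libraries.

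Cells outside the gate also make collagens, and their markers were measured beside the chains. Of 15 fibroblast markers, all tested, 8 had a positive and 7 a negative fold change. Their summed level was 2639 and 2484 CPM in the WT libraries and 2688 and 2676 CPM in the KO libraries, of which Postn took 67.7% to 80.7%. Postn stood at 1812 to 2130 CPM and Fbn1 at 383.8 to 487.0 CPM. Without these 2 genes, a sum chosen after the values were seen, the list stood at 125.7 and 147.0 CPM in the WT libraries, 189.3 CPM in the first KO library and 377.3 CPM in the second. In KO replicate 2, 6 of the 15 markers had 0 counts, Dpt, Fap, Twist2, Mfap5, Clec3b and Dpep1. Most of the sum without Postn and Fbn1 in KO replicate 2 was Dcn and Fbln1, named after their values were seen, while 7 of the 13 markers lay over 1.5-fold below the WT mean there. Dcn, a proteoglycan that binds fibrils, stood at 89.5 and 105.6 CPM in the WT libraries and 153.2 and 221.3 CPM in the KO libraries, both above WT as for Col6a1. Fbln1 stood at 10.1 and 7.70 CPM in the WT libraries and 10.8 and 102.6 CPM in the KO libraries. Col6a1 and this reduced fibroblast sum were both highest in KO replicate 2, whereas Col6a3 was lowest there and Col1a2 and Col3a1 were near their WT means; the part of fibroblast RNA in these values was not tested.

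Endothelial markers, 11 with a row, summed to 132.4 and 264.3 CPM in the WT libraries and 216.4 and 146.9 CPM in the KO libraries, led by Cdh5 at 42.0 to 90.0 CPM and Flt1 at 24.0 to 53.0 CPM. Pericyte markers, 8 with a row, summed to 205.5 and 315.4 CPM in the WT libraries and 235.8 and 220.3 CPM in the KO libraries, led by Mcam at 78.7 to 103.0 CPM and Rgs5 at 39.5 to 130.5 CPM. Both sums were highest in WT replicate 2. Among chains at 10 CPM or more, so were Col4a1, Col3a1, Col5a1, Col5a2, Col6a3, Col9a2, Col9a3, Col12a1 and Col14a1. The rest, Col4a2 among them, were highest in a KO library. Among the chains highest in WT replicate 2, the margin was small in Col5a1 (94.8 against 93.7 CPM) and Col14a1 (418.5 against 408.4 CPM). It was wider in Col6a3 (22.7 against 10.6 CPM). The share of all genes that were highest in WT replicate 2 was not counted. The part of endothelial and pericyte RNA in these levels was not tested. Positive fold changes were found in 2 of 11 endothelial and 3 of 8 pericyte markers. Immune markers summed to 68.7 and 151.0 CPM in the WT libraries and 99.1 and 319.1 CPM in the KO libraries, with 4 of 9 positive, led by Cd74 at 56.1 to 289.2 CPM and Ptprc at 2.69 to 25.0 CPM. Adipocyte markers summed to 16.2 and 28.5 CPM in the WT libraries and 32.5 and 138.8 CPM in the KO libraries. Of these 7 only Fabp4 passed the filter, at 14.8 and 28.3 CPM in the WT libraries and 32.2 and 138.8 CPM in the KO libraries, both above WT. Among the rest, Lep had at most 0.834 CPM, and all 6 had 0 counts in KO replicate 2. Luminal markers summed to 918.0 and 1423 CPM in the WT libraries and 1041 and 1465 CPM in the KO libraries. Basal markers summed to 9744 and 9390 CPM in the WT libraries and 12021 and 9949 CPM in the KO libraries. Both KO sums were above both WT sums on the TMM scale, but the place of KO replicate 2 depends on that scaling. Luminal markers, led by Epcam at 425.1 to 651.3 CPM and Krt8 at 244.7 to 356.2 CPM, had 3 of 8 positive members and basal markers 6 of 9.

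With KO replicate 2 as the only KO library, 12 of 36 chains were called, 3 higher and 9 lower, beside 12.4% of all genes called higher and 22.5% called lower. Col4a6, Col6a1 and Col25a1 were the chains called higher. Col4a3, Col5a2, Col5a3, Col11a2, Col27a1, Col6a3, Col7a1, Col9a1 and Col9a3 were the ones called lower. With KO replicate 1 as the only KO library, 0 of 37 chains and 0 (0.0%) of 16904 genes were called by edgeR, where 474 genes had an unadjusted p under 0.05. Leaving out either WT library gave 0 called chains, beside 0.0305% (without replicate 1) and 0.0306% (without replicate 2) of all genes called higher and 0.0% lower.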

How the data were processed

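The authors deposited raw counts of reads for each Ensembl gene, with 34615 gene rows and 5 summary rows in each library; the summary rows were left out of library sizes. Per the submitters' processing notes, reads were aligned with TopHat2 (2.02) and counted with HTSeq on NCBIM37 (mm9). The sources used here do not give the annotation release, strand setting or overlap rule. Reads of overlapping genes therefore cannot be told apart, which touches 11 of the 37 chains over at most 563 exon bases. Reads that HTSeq assigned to no feature were 57.6% to 61.5% of all reads in the tables, summary rows included. Symbols, exon lengths and 3' UTRs came from GENCODE M21 (GRCm38) by identifier (86.9% of rows matched), and promoter and microRNA sequences from RefSeq (GRCm38.p6) by symbol. Gene coordinates are not given for the counts, whose build differs.

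The comparison used edgeR 4.0.16 under R 4.3.3 (filterByExpr, TMM, quasi-likelihood test of genotype, adjusted over all genes). Each SE was derived from that test, as the absolute log2 fold change divided by the square root of the F statistic. The chains, lists and tests were chosen with earlier results of these data known. Chains at a mean of 10 CPM or more were given by library. From each enzyme list the 3 smallest p in each direction and the 2 most abundant genes were named, and from each marker list the 2 most abundant. P4ha2, P4hb, Fkbp10, Mia3, Ctage5, Adamts2, Pecam1, Cd68, Krt19 and Krt14 were not analysed here. Alternatives were DESeq2 1.42.0, limma 3.58.1 voom, other scalings and filters, a replicate block and each library left out. The procedure was run on simulated counts, which varied less than these data and held no library like KO replicate 2. That run therefore does not show how many changes could be found here. No source states molecular identifiers, so floors cover counting error only.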

Additional observations from a re-analysis of the deposited data

How the results depend on the processing

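The count of 0 called chains held under every scaling, filter and test tried, and moved only with a library left out, when it ran from 0 to 12 (12 without KO replicate 1). Over all genes, DESeq2 called 3 higher and 1 lower, and leaving out a library gave 0 to 2036 higher and 0 to 3688 lower, the most without KO replicate 1. The lone library of a genotype is then assumed to vary like the others. With a library left out, the median log2 fold change ran from -0.017 to 0.14 for basement membrane chains, -1.40 to -0.18 for fibrillar chains and -1.14 to 0.072 for other chains. The lowest of the last 2 were without KO replicate 1, where the fibrillar median was -1.06 with chains at 0 counts set to 3 counts; the cause was not tested. Among chains at 10 CPM or more, other scalings, filters and tests turned signs only near 0. With a library left out, signs also turned farther from 0, as in Col4a6 (0.52 as reported) and Col9a2 (-0.49 as reported). The scalings also moved the median of all genes (-0.14 as reported, -0.23 with upper quartile and -0.24 with total count scaling). The size of the shift differed between genes. Col4a5 stood at -0.045 with upper quartile and -0.057 with total count scaling, Col6a2 at -0.047 and -0.050 with the same scalings and at -0.015 with a mean CPM of 5 or more, and Col3a1 at 0.14 with limma voom. With a library left out, ranges that crossed 0 were -0.32 to 0.091 for Col4a1, -0.12 to 0.21 for Col4a5, -0.073 to 0.94 for Col4a6, -0.056 to 0.46 for Col18a1, -0.47 to 0.083 for Col1a2, -0.58 to 0.92 for Col3a1, -0.59 to 0.46 for Col6a2, -0.87 to 0.060 for Col7a1, -1.41 to 0.065 for Col9a2 and -0.20 to 0.076 for Col12a1. In the labels, same-numbered libraries shared only a number, and the correlation of their deviations was 0.0097 over 15364 genes. With 1 difference per genotype, and KO replicate 2 apart from the rest, that value cannot show whether they shared a preparation. The replicate block gave 0 called genes, Col3a1 at 0.17 and Col6a2 at -0.036, and changed no call. With 2 libraries a genotype and a biological coefficient of variation of 0.932 (0.608 without KO replicate 2), standard errors of the log2 fold change reached 2.69 in scarce chains.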
